A study of Oryctolagus cuniculus with 18 samples.

Results

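FGF2, FGF10, HGF and IGF1 are secreted growth factors through which mesenchymal cells signal to their neighbours, and they were measured in the lower abdominal aorta of 18 male New Zealand White rabbits. They are the 4 genes with these symbols among the 84 genes of interest (GOIs) of the rabbit wound healing PCR array, which also holds 5 reference genes. The control group (n = 9) consisted of healthy rabbits on chow whose aorta was not denuded. The atherosclerotic group (n = 9), whose lesions the labels describe as stable and advanced, was given food with 0.30% cholesterol for 8 weeks and 0.15% cholesterol for a further 12 weeks, in addition to balloon denudation of the aorta. Diet and denudation were always given together, so that their parts cannot be told apart, and the labels give no age. Each gene was read in 1 well per rabbit as a Ct, the cycle of the PCR in which fluorescence passes a set level, and the deposited ratio is 2 to the power of minus deltaCt, the level of a gene relative to the 5 reference genes of the same rabbit.

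FGF2, or basic fibroblast growth factor, lacks a classical signal peptide, is stored on heparan sulfate in the arterial wall and is a mitogen for smooth muscle and endothelial cells. FGF10 is a paracrine factor of mesenchyme that acts mainly on epithelium through the FGFR2b receptor. HGF is secreted by mesenchymal cells as an inactive single chain, is cleaved by serine proteases and acts through the receptor MET, also on endothelium. IGF1 acts through the IGF1 receptor as a growth and survival factor, and is made in many tissues, among others by smooth muscle cells and macrophages.

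The factors moved in different directions. At the deposited reference level, atherosclerotic aortas held FGF2 at a 3.94-fold lower, IGF1 at a 5.60-fold higher and HGF at a 2.14-fold higher level than control aortas, whereas the difference of FGF10 did not exceed the spread between rabbits. In limma with Benjamini-Hochberg adjustment over the 84 GOIs, 3 of the 4 factors were called at an adjusted p under 0.05, beside 60.7% of all GOIs. FGF2 was among the 22.6% of GOIs called lower, and IGF1 and HGF were among the 38.1% called higher. The split of all GOIs, 32 higher and 19 lower, became 22 and 34 when ACTA2 was dropped as a reference gene, 47 and 10 when LDHA was dropped, 27 and 29 relative to the mean of the GOIs detected in every rabbit, and 30 and 11 on raw Ct. Relative to 1 reference gene it was 79 and 0 for ACTA2, 40 and 10 for ACTB, 19 and 42 for GAPDH, and 8 and 59 for LDHA. ACTA2 itself, in the atherosclerotic relative to the control rabbits, differed by -2.91 on the log2 scale in the deposited ratio. The reference level of that ratio includes ACTA2, so part of the change of ACTA2 cancels. All 72 wells of the factors were measured at a Ct between 22.14 and 30.56, before the limit of 35 cycles, whereas 150 of 1512 GOI wells stood at that limit or had no Ct.

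FGF2 gave the clearest separation. Its ratio in control rabbits was 0.132 at the lowest, 0.173 at the median and 0.277 at the highest. Atherosclerotic rabbits had 0.0234, 0.0552 and 0.0871 in the same order. All 9 atherosclerotic rabbits therefore lay below every control rabbit, a lack of overlap shared by 22.6% of the GOIs. The log2 fold change was -1.98 (standard error 0.27), with an adjusted p of 2.1e-06 in limma. The exact two-sided permutation test gave p = 4.1e-05, the smallest that 9 against 9 rabbits allow. FGF2 ranked 6 from the bottom among the 84 GOIs by log2 fold change. Between the mean log2 levels of the GOIs it stood at rank 15 for controls and at rank 33 for atherosclerotic rabbits. Ranks of level, here and for IGF1, take the primers of all GOIs to amplify equally well, which was not tested.

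IGF1 moved the opposite way. Its ratio in the control group ran from 0.0141 over a median of 0.0239 to 0.0963. In the atherosclerotic group it ran from 0.0959 over a median of 0.124 to 0.264. The groups met at a single rabbit of each, since control rabbit 21 had the highest control value and lay just above atherosclerotic rabbit 2, while the other 8 atherosclerotic rabbits lay above all control rabbits. The log2 fold change of IGF1 was 2.48 (standard error 0.33, adjusted p = 2.1e-06 from limma, exact two-sided permutation p = 8.2e-05). It had rank 14 from the top of the 84 log2 fold changes, and its level rose from rank 36 to rank 20 of the GOIs. Without control rabbit 21 the log2 fold change was 2.72.

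HGF showed a smaller shift with more overlap. The control ratio was 0.0284 at the lowest, 0.0443 at the median and 0.136 at the highest, and the atherosclerotic ratio was 0.0816, 0.111 and 0.247 in the same order. Only 2 atherosclerotic rabbits lay above all control rabbits, and 6 control rabbits lay below all atherosclerotic rabbits. The log2 fold change was 1.10 (standard error 0.30, adjusted p = 0.0034 from limma, exact two-sided permutation p = 0.0029). This call was lost once ACTA2 no longer served as a reference gene, where the log2 fold change was 0.27 (adjusted p = 0.51 from limma).

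At the deposited reference level FGF10 had the smallest difference of the 4. Its ratio spanned 0.00959 to 0.0351 (median 0.0253) over control rabbits, and 0.00575 to 0.0319 (median 0.0138) over atherosclerotic rabbits. The ranges covered each other almost fully, with 2 control rabbits above and 2 atherosclerotic rabbits below all rabbits of the other group. The log2 fold change of -0.63 (standard error 0.33, 95% interval from -1.31 to 0.05) was not called (adjusted p = 0.099 from limma, exact two-sided permutation p = 0.072). It was called lower when ACTA2 was dropped, at -1.46 (adjusted p = 0.0014 from limma), and also without control rabbit 7, at -0.78 (adjusted p = 0.040), or without atherosclerotic rabbit 14, at -0.78 (adjusted p = 0.036). In 16 of the 18 runs that left out a single rabbit it stayed uncalled. Without atherosclerotic rabbit 2 it was at -0.48 (adjusted p = 0.19 from limma).

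**Figure D1:**
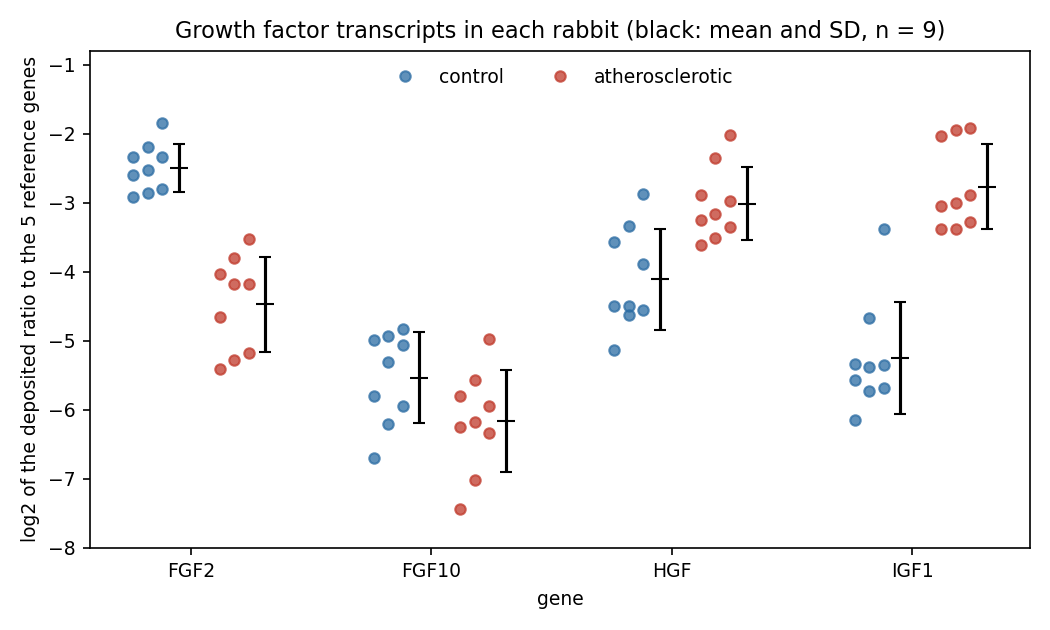
Log2 of the deposited ratio (vertical axis) of each factor (horizontal axis) in 9 control rabbits (blue) and 9 atherosclerotic rabbits (red), each point 1 rabbit, with the mean and SD in black. The FGF2 values do not overlap between the groups, the IGF1 values meet at control rabbit 21, and the FGF10 values overlap almost fully; relative to ACTA2 alone FGF2 would lie higher in the atherosclerotic group.

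The spread between rabbits differed among the factors. Among controls the SD of the log2 ratio was 0.35 for FGF2, 0.66 for FGF10, 0.73 for HGF and 0.81 for IGF1, beside a median SD of 0.56 over the 63 GOIs that were detected in every rabbit. Among atherosclerotic rabbits it was 0.69 for FGF2, 0.74 for FGF10, 0.53 for HGF and 0.62 for IGF1, beside a median of 0.64. FGF2 was thus the most uniform of the 4 in control aortas, with 2.09-fold between the lowest and the highest rabbit against 3.72-fold in atherosclerotic aortas. IGF1 spanned 6.83-fold in control aortas and 2.75-fold in atherosclerotic aortas. Whether these spreads differ between the groups was not tested.

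Comparing 2 factors within the same rabbit removes the reference genes, because the reference level cancels in the difference of their Ct values. The 6 pairs were read from one limma fit over all 3486 pairs of GOIs, with p-values adjusted over all of them, and 66.8% of all pairs were called. All 6 pairs were called, which is read against that background. The largest shift was that of FGF2 against IGF1. FGF2 minus IGF1 was 0.46 to 3.83 on the log2 scale (median 2.79) in control rabbits, and -2.62 to -0.42 (median -2.04) in atherosclerotic rabbits. FGF2 was above IGF1 in 9 of 9 control rabbits and below it in 9 of 9 atherosclerotic rabbits, so that the relative level of these mitogens changed by -4.46 (standard error 0.44, adjusted p = 1.9e-08 from limma), or 22.0-fold.

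FGF2 against HGF behaved alike. The difference was 1.00 to 2.54 (median 1.69) in control rabbits and -2.25 to -0.27 (median -1.66) in atherosclerotic rabbits. Here too, all 9 control rabbits had FGF2 above HGF and all 9 atherosclerotic rabbits had HGF above FGF2, a shift of -3.08 (standard error 0.33, adjusted p = 6.2e-08 from limma). FGF10 relative to IGF1 changed by -3.12 (standard error 0.34, adjusted p = 9.5e-08), from a range of -1.69 to 0.74 in controls to -4.06 to -2.90 in atherosclerotic rabbits. In these 3 pairs no rabbit of one group reached into the other group's range, which held for 25.2% of all pairs.

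The remaining pairs shifted less and overlapped. FGF2 against FGF10, the 2 fibroblast growth factors, changed by -1.34 (standard error 0.41, adjusted p = 0.0071 from limma). FGF10 against HGF changed by -1.73 (standard error 0.48, adjusted p = 0.0032). HGF against IGF1, the 2 factors that were higher at the deposited reference level, changed by -1.39 (standard error 0.48, adjusted p = 0.016), so IGF1 rose relative to HGF.

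**Figure D2:**
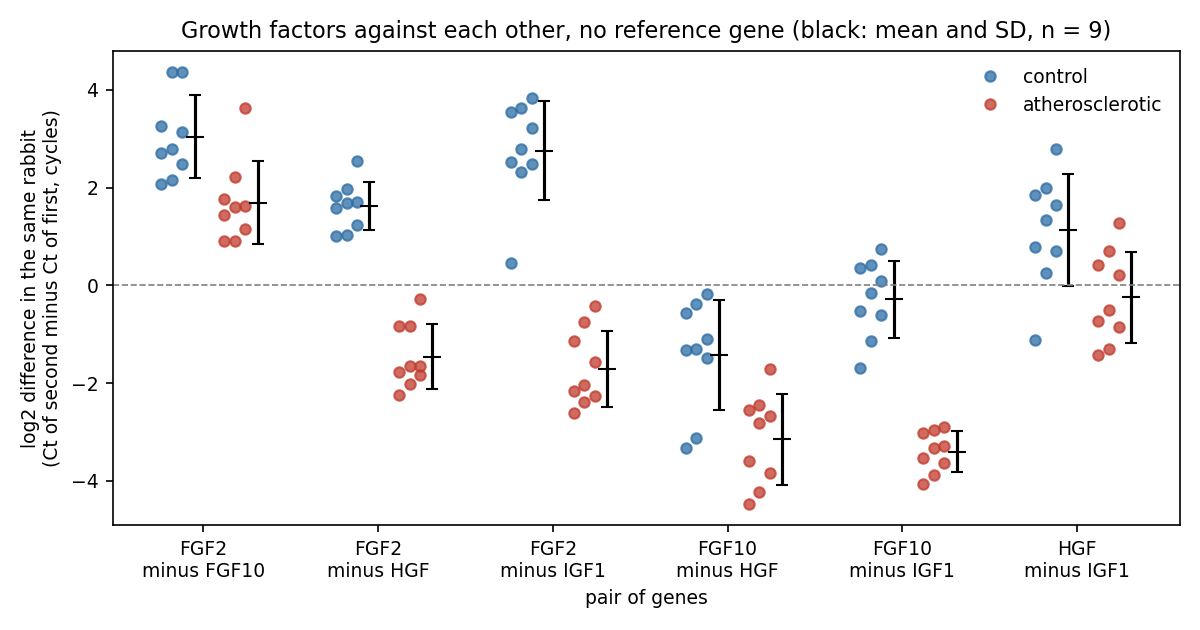
Difference between 2 factors in the same rabbit (vertical axis, cycles, which equal log2 units; above 0 the first gene is the higher) for the 6 pairs (horizontal axis) in 9 control rabbits (blue) and 9 atherosclerotic rabbits (red), with the mean and SD in black. FGF2 lies above HGF and above IGF1 in all control rabbits and below both in all atherosclerotic rabbits.

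The order of the levels followed from the same fit, if primers are taken to amplify equally well, which the files do not show. In controls FGF2 was the highest, followed by HGF (difference 1.62, adjusted p = 9.9e-07 against 0 from limma) and then by IGF1 (difference of HGF over IGF1 1.14, adjusted p = 0.0039). IGF1 and FGF10 were neighbours whose difference was not called, with a mean of FGF10 minus IGF1 of -0.28 (adjusted p = 0.27) and FGF10 above IGF1 in 4 of 9 rabbits. In the atherosclerotic group IGF1 and HGF shared the top, with HGF minus IGF1 at -0.25 (adjusted p = 0.50) and HGF above IGF1 in 4 of 9 rabbits. FGF2 followed below HGF (difference -1.46, adjusted p = 4.4e-06), and FGF10 was the lowest, with FGF2 above it by 1.70 (adjusted p = 1.3e-05). Among all pairs of GOIs, 89.3% differed from 0 in controls and 86.9% in atherosclerotic rabbits.

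The mean of FGF10 minus IGF1 moved from -0.28 in controls to -3.40 in atherosclerotic rabbits. The SD of this difference was 0.41 over the 9 atherosclerotic rabbits and 0.79 over the controls, and whether the SDs differ was not tested.

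The size of each shift, and for HGF and FGF10 the call, changed with the reference level. Across 8 other reference levels (each reference gene left out, the 3 that remain without ACTA2 and LDHA, the mean of the detected GOIs, and an arithmetic mean), FGF2 was lower and IGF1 was higher with an adjusted p under 0.05 in 8 of 8, FGF2 between -2.80 and -1.43 and IGF1 between 1.66 and 3.04. HGF was called higher in 5 of the 8, between 0.27 and 1.65. FGF10 was called lower in 3 of the 8, between -1.46 and -0.08. Against a single reference gene, an alternative chosen after seeing the data, directions turned for ACTA2, GAPDH and LDHA. Relative to ACTA2 alone, the actin of smooth muscle, all 4 factors were higher in the atherosclerotic group, FGF2 by 0.94 (adjusted p = 0.048 from limma) and FGF10 by 2.28 (adjusted p = 0.00033). Relative to LDHA alone, a glycolytic enzyme, HGF was at -1.43 (adjusted p = 0.0025) and IGF1 at -0.047 (adjusted p = 0.90). Relative to GAPDH alone, HGF was at -0.012 (adjusted p = 0.97).

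**Figure D3:**
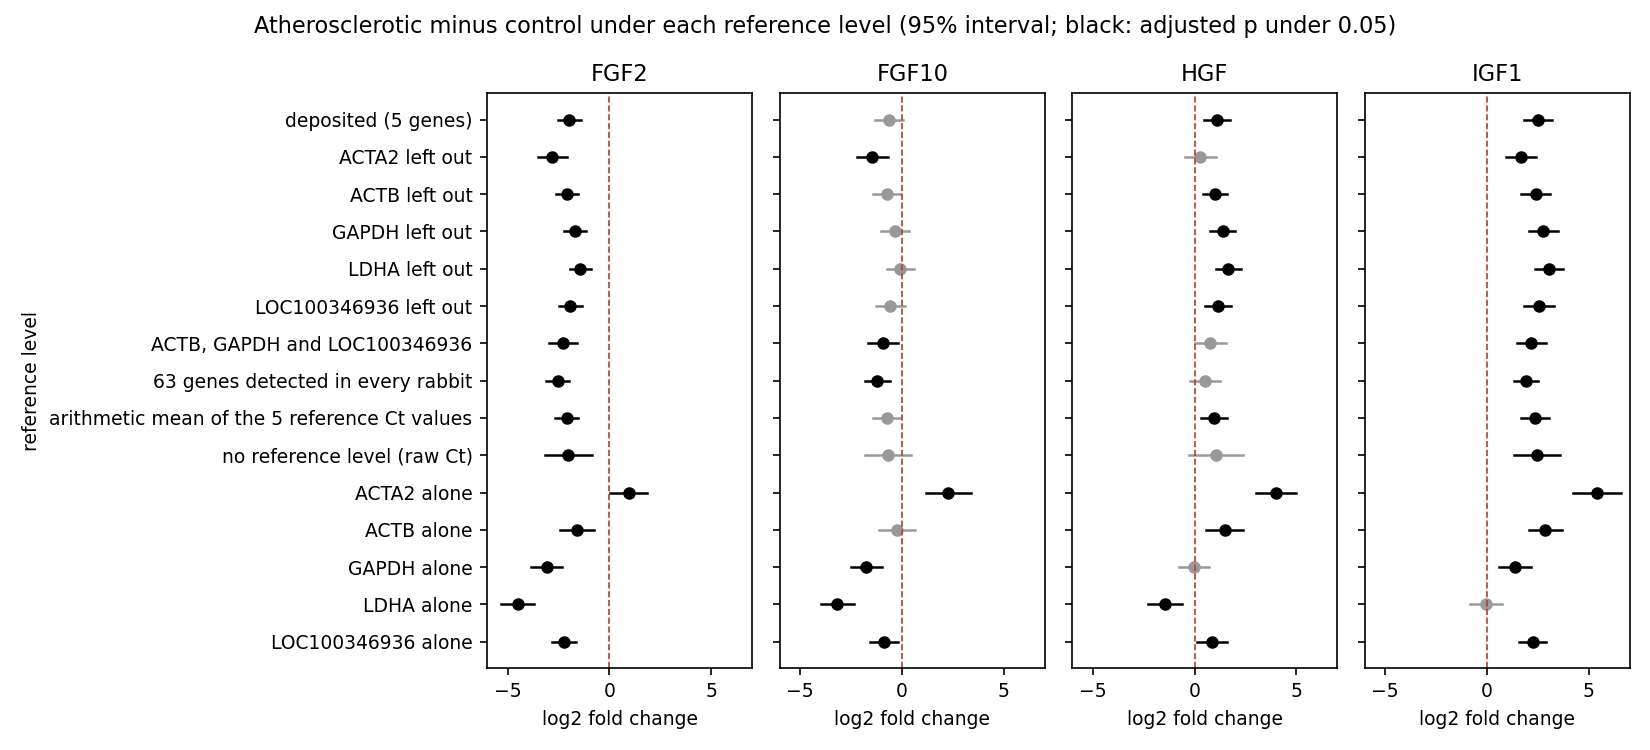
Log2 fold change of each factor, atherosclerotic over control (horizontal axis), under the deposited reference level and 14 others (vertical axis), with 95% intervals; black marks an adjusted p under 0.05 in limma and grey the rest. FGF2 lies below 0 except against ACTA2 alone, IGF1 lies above 0 except at -0.047 against LDHA alone, and the calls of HGF and FGF10 change with the reference level.

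The factors were also set against transcripts of the cell types of the wall within each rabbit. In bulk tissue, fewer cells of a type and less RNA per cell cannot be told apart. Of 5 smooth muscle markers 3 were on the array (ACTA2, TAGLN and ACTC1). Their summed ratio was 25.2 to 36.9 in control rabbits and 1.31 to 13.6 in atherosclerotic rabbits. ACTA2 (mean ratio 14.4 in control and 2.87 in atherosclerotic rabbits) and TAGLN (16.1 and 2.31) made up nearly all of this sum. ACTA2 also serves as a reference gene, so its ratio is partly set against itself. ACTC1 was at the Ct limit in 1 control and 7 atherosclerotic wells. Of 9 markers of inflammatory, macrophage-rich tissue 6 were present (TLR4, TNF, IL1B, CTSK, MMP9 and CCL2), 5 of them were called higher, beside 38.1% of all GOIs, and their sum was 0.483 to 0.997 in control rabbits and 3.38 to 7.29 in atherosclerotic rabbits. CTSK, the protease cathepsin K, made up nearly all of this sum, with a mean ratio of 0.719 in control and 4.88 in atherosclerotic rabbits. TNF was at the limit in all 9 control wells and MMP9 in 6. Of 3 T cell markers 1 was higher and 1 lower, and of 3 clot or liver genes likewise, beside 38.1% of all GOIs called higher and 22.6% lower. Both epithelial markers were near undetectable, with ITGB6 at the limit in 18 wells and EGF in 17. The part of these cell types in the shifts of the factors was not tested.

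Relative to TAGLN, the smooth muscle transgelin, every factor was higher in the atherosclerotic group. TAGLN had the lowest log2 fold change of the 84 GOIs (-2.99), so every other GOI was higher relative to it, and the direction is not particular to the factors. FGF2 rose by 1.01 on the log2 scale (standard error 0.27, adjusted p = 0.0027 over all pairs in limma), FGF10 by 2.35 (standard error 0.42), HGF by 4.09 (standard error 0.36) and IGF1 by 5.47 (standard error 0.44). ACTC1, the other smooth muscle marker tested, was at the Ct limit in 7 of 9 atherosclerotic wells and 1 control well, so that differences relative to it understate a rise. HGF (2.12, adjusted p = 0.0021) and IGF1 (3.51, adjusted p = 3.9e-07) were higher relative to ACTC1 even so, while the values of -0.95 for FGF2 and 0.39 for FGF10 show neither a rise nor its absence.

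The factors were set against the inflammatory markers in the same way. TNF and MMP9 were at the Ct limit in 9 and 6 of 9 control wells, which biases the fitted differences relative to them upwards, in addition to their sampling error. Relative to the 4 markers measured in nearly all wells (TLR4, CTSK, CCL2 and IL1B, with 1 control well of IL1B at the limit), FGF2 was lower for all 4, from -7.28 for TLR4 to -3.22 for IL1B (adjusted p = 0.0039 in limma). FGF10 and HGF were lower relative to TLR4, CTSK and CCL2, and stood at -1.88 (adjusted p = 0.066) and -0.14 (adjusted p = 0.91) for IL1B. The receptor TLR4 had the highest log2 fold change of the 84 GOIs (5.30), so every other GOI was lower relative to it. IGF1 was lower relative to TLR4 as well (-2.82, adjusted p = 4.6e-06). Its differences relative to the other 3 were not called, at -0.99 for CCL2, -0.27 for CTSK (95% interval from -1.13 to 0.60) and 1.24 for IL1B. Relative to MMP9 all 4 factors were lower, with a fitted value of -1.71 for IGF1 (95% interval from -2.83 to -0.59, adjusted p = 0.0084). Relative to TNF, FGF2 and FGF10 were lower. The fitted value of -1.24 for HGF (95% interval from -2.37 to -0.11) was not called (adjusted p = 0.0501 in limma). With this bias it is an upper limit, apart from its sampling error. The fitted value of 0.15 for IGF1 (95% interval from -0.81 to 1.11) was not called either and, with this bias, leaves its difference undetermined.

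The GOIs most like each factor were those with the smallest SD of the within-rabbit Ct difference over the 18 rabbits, among the other 62 GOIs detected in every rabbit. For FGF2 these were ITGA1, the alpha 1 integrin subunit that binds collagen, with an SD of 0.379, and EGFR, the epidermal growth factor receptor, with 0.381. Their log2 fold changes were -1.58 and -1.76. Since the measure spans both groups, it selects genes whose shift is close to that of the factor, and these values are no separate result. IGF1 was closest to ITGA6, the alpha 6 integrin subunit, with 0.697, and RHOG, a small GTPase, with 0.703, beside a median of 1.53 over the 62. FGF10 was closest to PTK2, the focal adhesion kinase, with 0.652, and TNC, the matrix protein tenascin C, with 0.735 (median 1.11). HGF was closest to IL6ST, the receptor subunit gp130, with 0.723, and PIK3CA, a catalytic subunit of PI3 kinase, with 0.786 (median 1.26). FGF2 had a closer companion than the other factors by this measure. Among the factors themselves no pair was this close, the smallest SD over the 18 rabbits being 1.07 for FGF2 and FGF10.

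Of 11 other secreted growth factors on the array, 3 were called higher, 5 lower and 3 were not called, beside 38.1% of all GOIs called higher and 22.6% lower, with a median log2 fold change of -0.17, beside 0.37 over all GOIs. PDGFB, a subunit of the platelet-derived growth factor, VEGFA, the endothelial growth factor, and TGFB1 were the higher ones, at 4.63, 1.24 and 0.83. TGFB3 (-2.15), CTGF (-1.25), CSF3 (-1.05), PDGFA (-0.88) and INHBA, the activin A subunit (-0.81), were the lower ones, and 6 of 9 atherosclerotic CSF3 wells were at the Ct limit. EGF (0.01), HBEGF (-0.17) and CSF2 (0.42) were not called. EGF was at the Ct limit in 8 control and 9 atherosclerotic wells, so its value cannot show whether EGF differed. CSF2 was at the limit in 3 control and 2 atherosclerotic wells. FGF2 lay between TGFB3 and CTGF, and IGF1 lay between PDGFB and VEGFA. The counts were 1 higher and 6 lower without ACTA2 as a reference gene, and 4 higher and 1 lower without LDHA, beside 22 and 34, and 47 and 10, of all 84 GOIs. PDGFB and TGFB3 kept their calls at all 8 other reference levels.

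**Figure D4:**
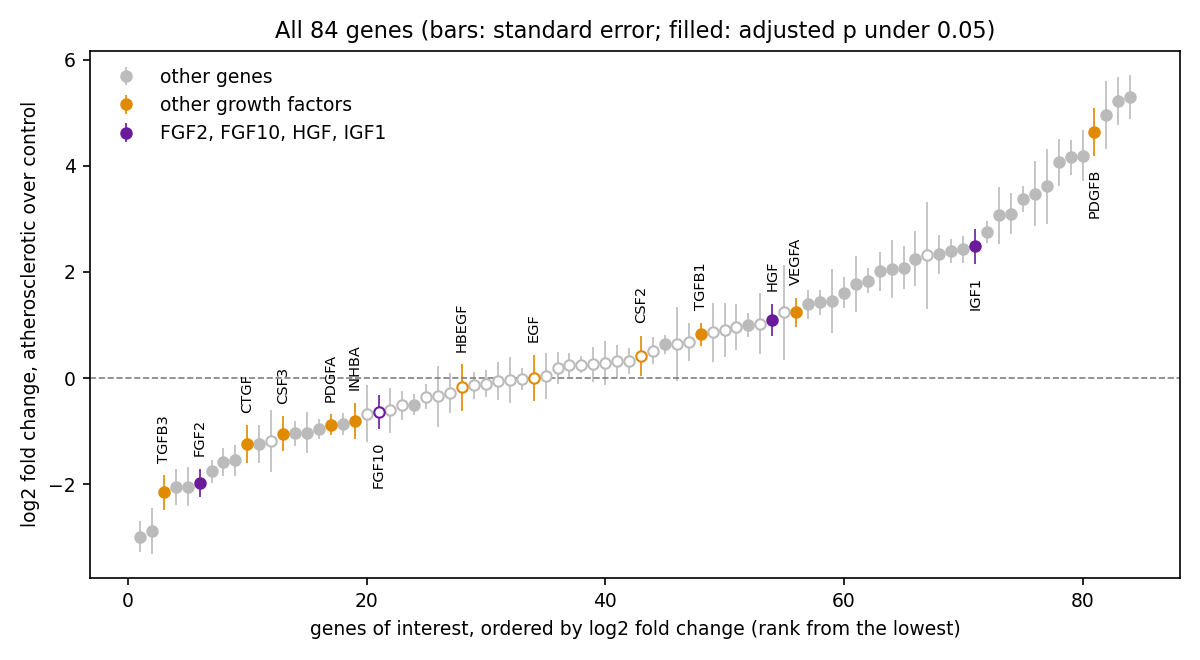
Log2 fold change at the deposited reference level (vertical axis, bars are standard errors) of the 84 GOIs ordered from the lowest to the highest (horizontal axis), filled where the adjusted p was under 0.05. The 4 factors (purple) are spread over the range, FGF2 at rank 6 and IGF1 at rank 71 from the lowest, among 11 other growth factors (orange); FGF2 and FGF10 turn positive against ACTA2 alone, HGF turns negative against LDHA or GAPDH alone, and IGF1 against LDHA alone.

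The receptors of the 4 factors were not analysed here, but 10 GOIs of receptor tyrosine kinase signalling were. Of these, 4 were called higher, 2 lower and 4 were not called, a share close to the 60.7% called among all GOIs, with a median log2 fold change of 0.26. The adaptor GRB2 was higher by 1.43, the kinase MAPK3 by 1.01, PIK3CA by 0.63 and TIAM1, an exchange factor for the GTPase RAC, by 5.22. EGFR and PTK2 (-0.50) were lower. Without ACTA2 as a reference gene 2 were higher and 5 lower, and without LDHA 7 were higher and 1 lower, while GRB2, TIAM1 and EGFR kept their calls at all 8 other reference levels.

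Among GOIs of the plasminogen system, whose proteases cleave growth factor precursors and matrix, PLAU (urokinase) was higher by 3.37 (standard error 0.25, adjusted p = 7.4e-10 from limma). PLG (plasminogen) was lower at -2.87 (standard error 0.43), with 7 of 9 atherosclerotic wells at the Ct limit. PLAUR (2.32, adjusted p = 0.053) and PLAT (0.29) were not called. PLAU and PLG kept their calls at all 8 other reference levels.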

How the data were processed

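Aortic RNA of 18 rabbits was analysed, with groups and rabbit numbers as the labels give them. The authors extracted RNA with TRIzol, read the plates on an Mx3000P system and processed them in GeneGlobe. They deposited Ct values and, for each gene, a ratio to 5 reference genes, which is 2 raised to minus deltaCt. With Ct held at 35 and the reference Ct values averaged geometrically, the log2 ratios of the factors were recovered from Ct within 6.8e-05 cycles. A table of the authors' own fold changes was not used.

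Groups were compared on log2 of the ratio with limma (lmFit and eBayes, no covariate) over 84 GOIs, and on Ct differences over 3486 gene pairs, with Benjamini-Hochberg adjustment and a threshold of 0.05. Permutation tests were exact and two-sided, over 48620 assignments. Scripts were tested on simulated data. The factors, lists and tests were chosen with earlier results of these data known. Named genes were the factors, the members of the lists, and the 2 GOIs most like each factor. One member of the plasminogen list is not reported here. The reference level was at 24.53 cycles in control rabbit 3 and at 22.00 to 22.82 cycles in the other controls. It was at 19.79 cycles in atherosclerotic rabbit 20 and at 22.65 to 23.65 cycles in the others of that group. With 1 well per gene and rabbit, technical error is part of the spread, and the number of rabbits limits the precision. The labels name no plate or batch. Alternatives were other reference levels, other treatment of late wells, a pseudocount of 0.001, other limma settings and leaving out rabbits. Software was R 4.3.3, limma 3.58.1, Python 3.11.15, numpy 2.4.6, pandas 2.3.3 and scipy 1.17.1.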

Additional observations from a re-analysis of the deposited data

Results flagged for a closer look

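The 4 factors and 6 pairs gave 20 sets of 9 rabbits, of which 2 contained a rabbit well apart from the rest, and about 1 would arise by chance. In control rabbit 21 FGF2 exceeded IGF1 by 0.46 on the log2 scale, whereas the range was 2.33 to 3.83 among the remaining controls. This rabbit had the lowest FGF2 ratio (0.132) and the highest IGF1 ratio (0.0963) of its group. In atherosclerotic rabbit 2 FGF2 exceeded FGF10 by 3.64, whereas the range was 0.90 to 2.21 among the remaining rabbits of its group. Its FGF10 ratio, 0.00575, was the lowest of all 18 rabbits. With 1 well per gene, what set these rabbits apart was not tested.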

How the results depend on the processing

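The 6 differences between factors held their sign and call under the 22 alternatives run for each (late wells, exact tests, rabbits left out). No factor well was late, so the settings for late wells, like the exact test, left these differences themselves unchanged. Only leaving out rabbits could have turned a sign. Leaving out single rabbits gave -2.10 to -1.86 for FGF2, 2.37 to 2.72 for IGF1, 0.97 to 1.25 for HGF and -0.78 to -0.48 for FGF10, and changed the call of FGF10 alone. HGF lost its call without ACTA2 (0.27), relative to ACTB, GAPDH and LOC100346936 (0.78), relative to the mean of the 63 detected GOIs (0.53), on raw Ct (1.06), and relative to those 3 reference genes without rabbits 3 and 20 (0.48). FGF10 gained a call in these settings other than raw Ct (-1.46, -0.95, -1.20 and -1.04), and relative to GAPDH (-1.74), LDHA (-3.17) or LOC100346936 (-0.89) alone. Signs turned relative to ACTA2 alone for FGF2 (0.94) and FGF10 (2.28), to GAPDH alone for HGF (-0.012), and to LDHA alone for HGF (-1.43) and IGF1 (-0.047). The cause was not tested. The 51 GOIs called became 79 relative to ACTA2 alone and 41 to 67 elsewhere. Across all alternatives 8 to 79 GOIs were called higher and 0 to 59 lower. The median of all GOIs moved by -0.82 without ACTA2 and by 0.55 without LDHA. Single reference genes, and the setting without rabbits 3 and 20 on 3 reference genes, were chosen after seeing the data. No paired analysis was possible because the groups share no rabbit numbers.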
